A study of Mus musculus with 19 samples.

Results

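Layer 5 of the neocortex holds the large pyramidal neurons whose axons leave the cortex for the spinal cord, brainstem and thalamus, together with neurons that project to the striatum and the opposite hemisphere. The 9 genes described here mark these neurons or act in their development, and were followed through the depth of the adult mouse primary somatosensory cortex (S1). They were chosen by name, with earlier results of these data known. They are 4 transcription factors (Fezf2, Bcl11b, Etv1 and Bcl6), 1 transcriptional cofactor (Ldb2) and 4 further markers (Pcp4, Parm1, S100a10 and Tmem200a). All 9 were found among 24130 Ensembl genes with a value in any library. All 9 also belonged to the 11409 classifiable genes, defined here as those whose widest 95% interval over the libraries was at most 50% of the mean level.

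Poly(A) RNA came from laminar segments of S1 of male C57BL/6J mice (C57BL/6 in the labels) at postnatal day 56, and the labels name no genetic or drug manipulation in any group. The 6 segments ran from the surface to the white matter, and the labels describe A as mostly layers 1-3, B as mostly layer 4, C and D both as mostly layer 5, E as mostly layer 6 and F as mostly layer 6b. C was the upper and D the lower of the layer 5 segments. Each library pooled tissue of 8 mice, except B1 and B2, which were biological replicates of segment B from 4 littermates each, so that only segment B had a replicate. All segments came from the same 8 mice, B1 and B2 being their 2 litters, so the libraries of different segments are not independent animals. Segments were cut by hand across curved layers, and each may therefore hold tissue of neighbouring layers. The other 12 samples of the series, from dorsal and lateral cortex, were not analysed here.

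In cortical development Fezf2, a zinc finger factor, is required for the subcerebral projection neurons of layer 5, and Bcl11b (also called Ctip2), a second zinc finger factor, acts downstream of it in the growth of their axons. Tbr1 acts against this programme in corticothalamic neurons. In the adult cortex Etv1 and Pcp4 are widely used as histological markers of layer 5, although Pcp4 is also found in layer 6.

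Levels are given in FPKM (fragments scaled to the length of the transcript and to the mapped fragments of the library), a unit that corrects for transcript length and so allows levels of different genes to be compared. The depth, estimated from deposited coverage and FPKM, was between about 31300000 fragments in A and about 74900000 in B2, and the median 95% interval of a classifiable gene spanned between 10.8% and 16.8% of its level. The intervals carry counting and model error of a library and no difference between mice. The replicates B1 and B2 stood apart from each other: their intervals did not overlap for 66.4% of the classifiable genes, mitochondrial genes held 7.76% of the summed FPKM in B1 and 18.2% in B2, and the mean insert was 239 nt in B1 and 193 nt in B2. Library A had the highest mitochondrial share, 21.8%. Marker sums followed the labels in their order, with overlap between neighbours. The 5 upper layer markers summed to 408.5 FPKM in A, 380.2 in B1, 385.1 in B2 and 55.1 in F, and so hardly separated A from segment B. The 3 layer 4 markers were highest in B1 at 50.8 FPKM, with 42.7 in B2 and 22.0 in C. The 4 layer 6 markers were highest in E at 114.8 FPKM, with 104.3 in F, and the 4 layer 6b markers reached 382.4 FPKM in F.

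The sequences just before the start sites of 6 of the 9 genes are shown because the data divide these genes into those that peak in C (Fezf2, Etv1, Bcl6 and Parm1) and those that stay high to the white matter (Bcl11b and Pcp4). Each holds the 200 bases before the start of the first-listed RefSeq transcript on GRCm38.p6, read 5′ to 3′ on the strand of the gene, with the GC box GGGCGG or its reverse complement CCGCCC in capitals.
Fezf2, chr14:12345866-12346065, minus strand: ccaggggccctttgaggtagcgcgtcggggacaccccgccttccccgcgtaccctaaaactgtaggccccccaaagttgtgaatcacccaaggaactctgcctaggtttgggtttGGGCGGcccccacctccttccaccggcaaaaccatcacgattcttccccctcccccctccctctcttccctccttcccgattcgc
Etv1, chr12:38779882-38780081, plus strand: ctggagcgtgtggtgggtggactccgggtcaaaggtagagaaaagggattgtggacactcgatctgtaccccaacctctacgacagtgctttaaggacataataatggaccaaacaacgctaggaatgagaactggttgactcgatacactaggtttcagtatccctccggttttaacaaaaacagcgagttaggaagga
Bcl6, chr16:23988853-23989052, minus strand: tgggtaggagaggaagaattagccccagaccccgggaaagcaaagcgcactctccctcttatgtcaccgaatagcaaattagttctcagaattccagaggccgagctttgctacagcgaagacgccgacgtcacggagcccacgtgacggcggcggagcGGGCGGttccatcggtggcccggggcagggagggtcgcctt
Parm1, chr5:91517500-91517699, plus strand: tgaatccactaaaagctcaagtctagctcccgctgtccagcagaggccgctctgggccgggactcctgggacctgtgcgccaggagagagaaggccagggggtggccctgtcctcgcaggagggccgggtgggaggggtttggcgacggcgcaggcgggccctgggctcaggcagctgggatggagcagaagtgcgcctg
Bcl11b, chr12:108003415-108003614, minus strand: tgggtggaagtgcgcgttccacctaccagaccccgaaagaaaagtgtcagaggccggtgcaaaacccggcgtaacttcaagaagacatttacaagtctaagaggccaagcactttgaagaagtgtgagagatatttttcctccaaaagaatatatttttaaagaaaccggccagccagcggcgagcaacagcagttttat
Pcp4, chr16:96467406-96467605, plus strand: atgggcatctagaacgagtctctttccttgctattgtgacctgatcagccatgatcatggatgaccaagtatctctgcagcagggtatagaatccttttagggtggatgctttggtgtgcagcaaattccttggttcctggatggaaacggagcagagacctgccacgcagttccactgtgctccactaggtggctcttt
A GC box was found in the windows of Fezf2 and Bcl6, 1 in each, against 31.0% of all 32851 promoter windows of this length. The TATA letters TATAAA or TTTATA, held by 9.96% of all windows, and the CCAAT letters CCAAT or ATTGG, held by 29.3%, were in none of the 6 windows shown. Etv1 and Bcl6 each have a second window, not shown, which for Etv1 holds 1 TATA match and for Bcl6 holds no GC box. The G and C share was 62.5% for Fezf2, 61.0% for Bcl6 and 68.5% for Parm1, and 46.5% for Bcl11b, 47.5% for Etv1 and 49.5% for Pcp4, where the median of all windows was 53.0%. These matches are letters in a window and were not tested for binding. Ldb2 and S100a10 had no entry, and Tmem200a has windows that overlap each other and is not shown.

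**Figure D1:**
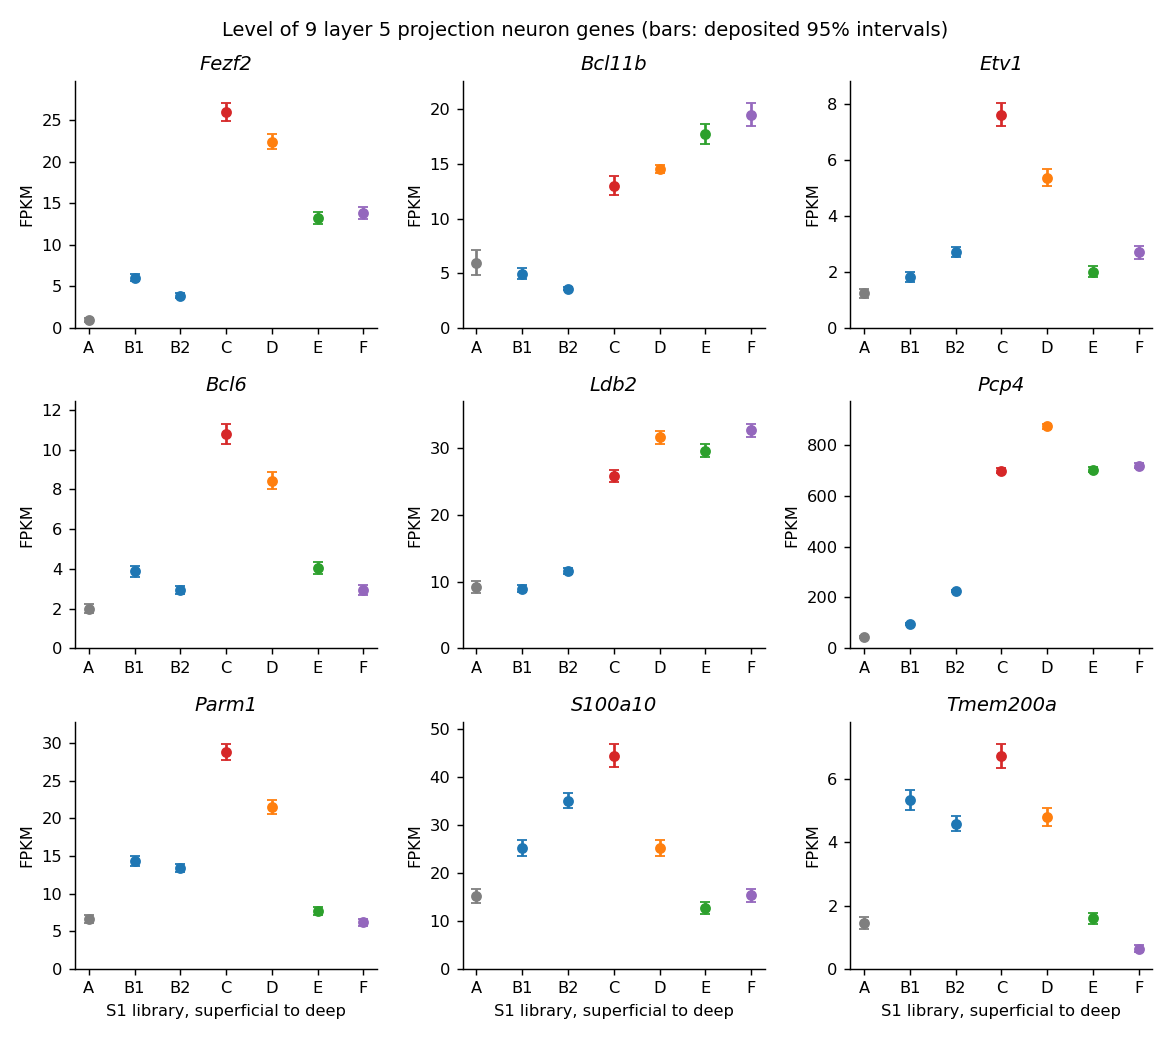
Level of each of the 9 genes (FPKM, linear axis from 0) in the 7 S1 libraries from superficial to deep, with the deposited 95% intervals as bars. Fezf2, Etv1, Bcl6, Parm1, S100a10 and Tmem200a are highest in C, Pcp4 is highest in D, and Bcl11b and Ldb2 are highest in F.

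The data showed more than 1 shape of profile. Of the 9 genes, 6 were highest in C (Fezf2, Etv1, Bcl6, Parm1, S100a10 and Tmem200a), 1 in D (Pcp4) and 2 in F (Bcl11b and Ldb2), where 8.58%, 8.39% and 29.3% of all classifiable genes were highest in C, D and F. Segments C and D together held a median of 57.1% of the summed FPKM of the 6 segments over the 9 genes, with a range of 36.7% for Bcl11b to 61.3% for Etv1, and a median of 34.2% over all classifiable genes. By intervals, 7 of the 9 genes had C or D above all of A, B1, B2, E and F, a criterion that 6.71% of classifiable genes met. Bcl11b and Ldb2 did not meet it. When the height above the next library also had to exceed the gap between B1 and B2 of the same gene, 5 of the 9 remained (Fezf2, Etv1, Bcl6, Parm1 and Tmem200a), against 4.13% of classifiable genes. Because the 9 are layer 5 markers chosen with earlier results known, the shares of all genes here and below are background and no test. In the loci that the authors assembled without annotation, Fezf2, Bcl6, Pcp4 and S100a10 had C or D above the other libraries. There, C overlapped with A and B2 for Etv1 and with B2 for Tmem200a, and no such locus covered Parm1 in C or D. The share of all such loci that meet this criterion is not given, so these calls have no background beside them. In bulk tissue, fewer cells of a type and less RNA per cell cannot be told apart.

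Fezf2 (ENSMUSG00000021743, mm9 chr14:13174616-13178342) was at 0.980 FPKM in A, 6.06 and 3.86 in the replicates B1 and B2, 26.0 in C, 22.45 in D, and 13.3 and 13.8 in E and F. C and D were the highest libraries and A was far below every other library. Ordered by level, only F and E had overlapping intervals. The mean of C and D was 24.7 times the level in A, the widest such ratio of the 9 genes, and 4.88 times the mean of B, which was 4.96 ± 1.56 FPKM (SD, n = 2). Fezf2 did not disappear below layer 5: the mean of E and F was 0.559 times that of C and D.

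Bcl11b (ENSMUSG00000048251, mm9 chr12:109148613-109241812) was at 5.98 FPKM in A, 4.97 and 3.59 in the replicates B1 and B2, 13.01 in C, 14.5 in D, and 17.7 and 19.5 in E and F. All 4 libraries from C downward lay above A, B1 and B2, and the highest levels were in E and F, whose intervals overlapped. The mean of C and D was 3.21 times that of B (4.28 ± 0.973 FPKM, SD, n = 2), and the mean of E and F was 1.35 times that of C and D. Bcl11b is also a known marker of striatal projection neurons and is found in cortical interneurons. The 7 striatal markers summed to 60.8 and 82.4 FPKM in C and D, to 157.5 and 228.2 in E and F, and to between 89.6 and 120.6 in A, B1 and B2, with none of the 7 under 0.1 FPKM in any library. The 7 interneuron markers summed to 532.3 FPKM in C and 571.4 in D, and to between 299.3 and 445.7 in the other libraries, again with none under 0.1 FPKM. Their part in the Bcl11b levels was not tested.

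Bcl11b was the only one of the 9 genes with several listed isoforms of substantial level. The longest, with a model of 8111 nt, was listed in all libraries, at 2.43 FPKM in A, 2.19 and 3.59 in the replicates B1 and B2, 10.2 in C, 14.5 in D, and 15.1 and 13.9 in E and F. The isoform of 2888 nt was at 0.905 FPKM in A, 2.78 in B1, 2.82 in C, 2.66 in E and 5.57 in F and was not listed in B2 or D. The isoform of 2522 nt was listed in A alone, at 2.65 FPKM. For the longest isoform by itself, the intervals of E and F both overlapped with that of D. The rise of the whole gene below D went with the 2888 nt isoform being listed in E and F and not in D. Its listing also differed between the replicates B1 and B2, so the rise cannot be assigned to an isoform. The longest isoform thus held 78.3% of the Bcl11b level in C and 100% in D. Its interval in D lay above that in C, as it did for the whole gene. The replicates of segment B differed as widely, with 44.1% from the longest isoform in B1 and 100% in B2, so isoform shares of Bcl11b could not be told apart between C and D beyond the spread of replicates. The other 8 genes had 1 annotated isoform listed, which carried 94.3% of the Ldb2 level in A and the whole level in all other cases.

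**Figure D2:**
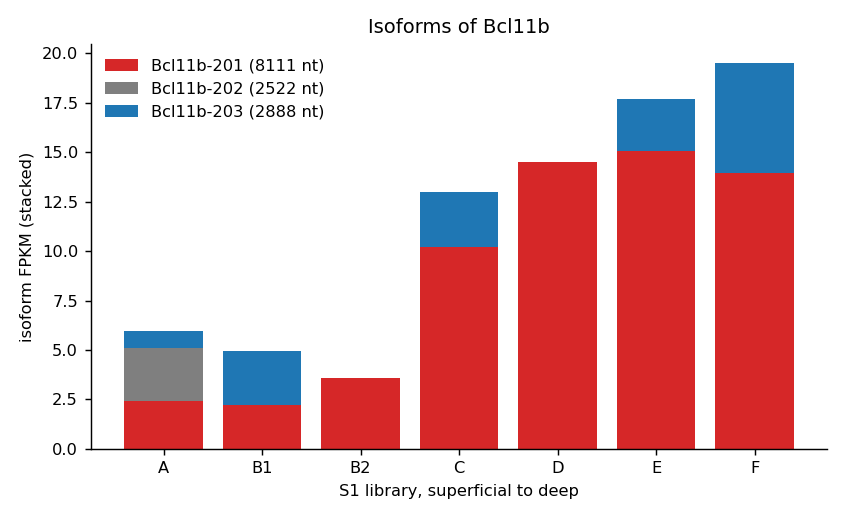
Level of the 3 listed isoforms of Bcl11b (FPKM, stacked bars from 0) in the 7 libraries. The 8111 nt isoform makes up the whole bar in B2 and D, and the 2888 nt isoform is largest in F at 5.57 FPKM.

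Etv1 (ENSMUSG00000004151, mm9 chr12:39506897-39594790), an ETS family transcription factor, was at 1.24 FPKM in A, 1.83 and 2.70 in the replicates B1 and B2, 7.60 in C, 5.36 in D, and 2.0 and 2.69 in E and F. C and D lay above all other libraries, and C above D. B2 overlapped with F, and E with B1. It had the highest share in C and D of the 9 genes, above 99.5% of classifiable genes. The mean of C and D was 2.86 times that of B (2.27 ± 0.618 FPKM, SD, n = 2), and the mean of E and F was 0.362 times that of C and D.

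Bcl6 (ENSMUSG00000022508, mm9 chr16:23965138-23988938), a zinc finger repressor best known from germinal centre B cells, was at 1.98 FPKM in A, 3.88 and 2.93 in the replicates B1 and B2, 10.8 in C, 8.43 in D, and 4.04 and 2.93 in E and F. Its profile resembled that of Etv1, with C and D above all other libraries and Pearson's r = 0.91 between the log2 levels of the pair over the 7 libraries, given as a description. In the locus assembled without annotation C was again highest, but D (33.65 FPKM) was below E (47.0 FPKM), with overlapping intervals. The mean of C and D was 2.82 times that of B (3.40 ± 0.673 FPKM, SD, n = 2). The mean of E and F was 0.363 times that of C and D.

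Ldb2 (ENSMUSG00000039706, mm9 chr5:44863372-45190946), a cofactor that binds the LIM domains of transcription factors, was at 9.13 FPKM in A, 8.96 and 11.6 in the replicates B1 and B2, 25.8 in C, 31.7 in D, and 29.6 and 32.7 in E and F. It divided the libraries into A, B1 and B2 below and C to F above, with no overlap between those sets. F and D overlapped at the top. The mean of C and D was 2.80 times that of B (10.3 ± 1.87 FPKM, SD, n = 2), and the mean of E and F was 1.08 times that of C and D.

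Pcp4 encodes a small calmodulin-binding protein of neurons and was the most abundant of the 9 genes, at 45.0 FPKM in A, 94.5 and 224.0 in the replicates B1 and B2, 698.9 in C, 872.2 in D, and 702.6 and 717.9 in E and F. D was highest, while F, E and C overlapped with their neighbours in the order of levels. The replicates of segment B differed by 2.37 times for this gene, the widest gap of the 9, so the ratio of 4.93 between the mean of C and D and that of B (159.2 ± 91.5 FPKM, SD, n = 2) is the least precise. The mean of E and F was 0.904 times that of C and D. The row used carries the identifier ENSMUSG00000000159 (mm9 chr16:96689213-96747400), which GENCODE M21 gives to Igsf5. Its only listed transcript, with the same level in all 7 libraries, is one that GENCODE M21 assigns to Pcp4.

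Parm1 (ENSMUSG00000034981, mm9 chr5:91946726-92053020), which encodes a mucin-like membrane protein, was at 6.64 FPKM in A, 14.4 and 13.4 in the replicates B1 and B2, 28.8 in C, 21.5 in D, and 7.75 and 6.22 in E and F. C was highest and D second, B1 and B2 overlapped in the middle, and A and F overlapped at the bottom. The replicates of segment B were closest for this gene, with a mean of 13.9 ± 0.698 FPKM (SD, n = 2). The mean of C and D was 1.82 times that of B, and D was 2.78 times E.

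S100a10 (ENSMUSG00000041959, mm9 chr3:93359002-93368565) encodes p11, the partner of annexin A2, and was at 15.2 FPKM in A, 25.2 and 35.0 in the replicates B1 and B2, 44.4 in C, 25.1 in D, and 12.7 and 15.3 in E and F. C was highest, but D overlapped with B1 and lay below B2, so that only the upper of the layer 5 segments was above segment B. The mean of C and D was 1.15 times that of B (30.1 ± 6.90 FPKM, SD, n = 2). Annexin A2 itself (Anxa2) was highest in A at 6.42 FPKM and between 1.25 and 2.31 FPKM elsewhere, with 20.6% of its summed level in C and D, and was not classifiable.

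Tmem200a (ENSMUSG00000049420, mm9 chr10:25710992-25798858), which encodes a transmembrane protein, was at 1.44 FPKM in A, 5.33 and 4.58 in the replicates B1 and B2, 6.72 in C, 4.80 in D, and 1.60 and 0.640 in E and F. C was highest, D overlapped with both B1 and B2, and F was lowest. Tmem200a had the steepest decline below layer 5 of the 9 genes, with D at 7.49 times F and the mean of E and F at 0.194 times that of C and D. The mean of C and D was only 1.16 times that of B (4.96 ± 0.527 FPKM, SD, n = 2).

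**Figure D3:**
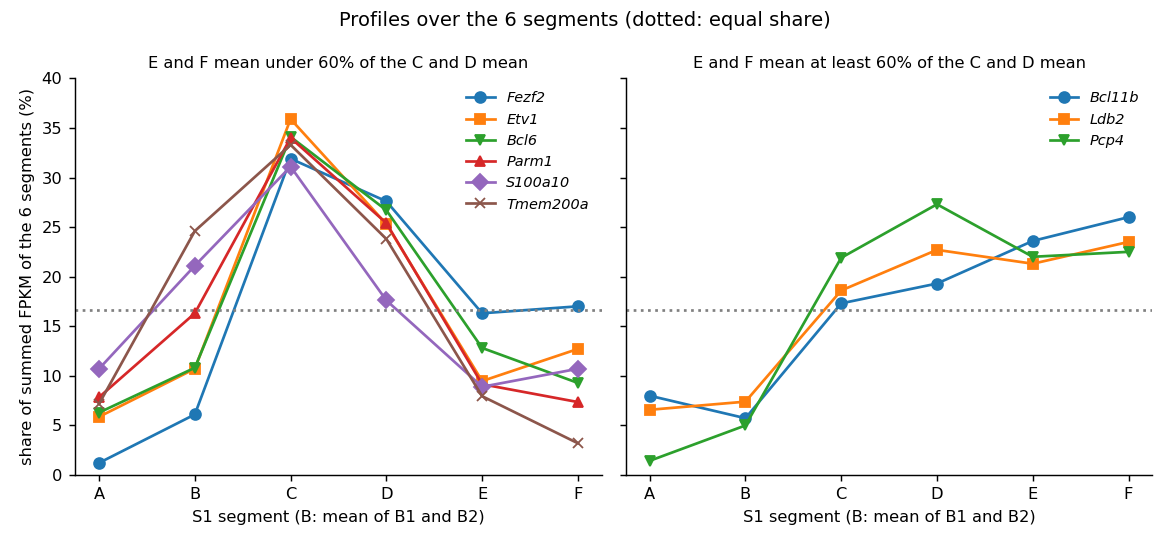
Share of each segment (%) in the summed FPKM of the 6 segments, for the 6 genes whose mean in E and F was under 60% of that in C and D and for the 3 others, a division made after the values were seen. The first set peaks in C, at 31.1% to 35.9%, and the second stays above the equal share (dotted line) from C to F.

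Layer 5 was then set against its neighbours in a limma fit on log2(FPKM + 0.1) with 1 coefficient for each labelled layer, in which the difference between C and D counts as spread and A, E and F are assumed to vary like B and layer 5. The libraries pool the same mice, so animals could not enter the fit and its p-values measure the spread between these libraries. Against all other segments, all 9 genes were higher in layer 5, by 2.11 ± 0.23 for Fezf2, 1.71 ± 0.19 for Tmem200a, 1.70 ± 0.41 for Pcp4, 1.65 ± 0.25 for Etv1, 1.64 ± 0.19 for Bcl6, 1.60 ± 0.16 for Parm1, 0.95 ± 0.30 for S100a10, 0.72 ± 0.17 for Ldb2 and 0.50 ± 0.18 for Bcl11b on the log2 scale (difference ± SE, 7 libraries). The median over all classifiable genes was 0.11, and a median of ratios scaling shifted that median by -0.12 and the median against layer 4 by -0.17, so values near these are not told apart from scaling. None of the 9 passed an adjusted p of 0.05 in limma, where the adjusted values lay between 0.0897 for Parm1 and 0.217 for Bcl11b, and 0.0877% of classifiable genes passed as higher in layer 5. At an unadjusted p under 0.05 all 9 were higher, against 17.9% of classifiable genes. The fit has 2 residual degrees of freedom. Without A, Fezf2 differed by 1.32 and stood below Tmem200a at 1.64. With the dependence on GC content removed, Fezf2 passed, at an adjusted limma p of 0.0321. It was among 27 of 10801 genes that then passed as higher in layer 5, against 10 of 11409 in the main fit.

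The 9 genes separated by which neighbour they differed from. Against layer 4, Pcp4 was higher by 2.42 ± 0.48, Fezf2 by 2.30 ± 0.27, Bcl11b by 1.68 ± 0.21, Etv1 by 1.48 ± 0.29, Ldb2 by 1.48 ± 0.20, Bcl6 by 1.47 ± 0.23 and Parm1 by 0.84 ± 0.19 (log2 difference ± SE), beside a median of 0.18 over all classifiable genes. Tmem200a and S100a10 differed from layer 4 by about that median, at 0.20 ± 0.23 and 0.17 ± 0.36. S100a10 changed sign under median of ratios scaling (-0.02) and without C (-0.24) or B1 (-0.07), and Tmem200a without C (-0.04). Of the 9, 7 were higher at an unadjusted p under 0.05, against 16.9% of classifiable genes, and none passed the adjusted limma threshold, which 0.0175% of classifiable genes passed. Both C and D lay above both B1 and B2 by intervals for the same 7 genes, a criterion met by 24.6% of classifiable genes.

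Against layers 6 and 6b, Tmem200a was higher in layer 5 by 2.37 ± 0.23, Parm1 by 1.83 ± 0.19, Bcl6 by 1.44 ± 0.23, Etv1 by 1.42 ± 0.29, S100a10 by 1.26 ± 0.36 and Fezf2 by 0.83 ± 0.27 (log2 difference ± SE), beside a median of -0.07 over all classifiable genes. Pcp4 (0.14 ± 0.48), Ldb2 (-0.12 ± 0.20) and Bcl11b (-0.43 ± 0.21) did not pass at an unadjusted p of 0.05, and the sign of Ldb2 turned without C (0.03) and that of Pcp4 without D (-0.02). Of the 9, 6 were higher at an unadjusted p under 0.05, against 5.05% of classifiable genes. None passed the adjusted limma threshold, which 0.0351% of classifiable genes passed. With the dependence on GC content removed, Tmem200a (adjusted p = 0.0356) and Parm1 (adjusted p = 0.0367) passed in limma. That alternative also called far more genes as higher in layer 5, 82 of 10801 against 4 of 11409 in the main fit. Both C and D lay above both E and F by intervals for 6 of the 9 genes, against 8.83% of classifiable genes. Bcl6, Etv1, Parm1 and Fezf2 thus exceeded both neighbours by intervals, Bcl11b, Ldb2 and Pcp4 exceeded layer 4 alone in both C and D, and S100a10 and Tmem200a exceeded layers 6 and 6b in both C and D but layer 4 in C alone.

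**Figure D4:**
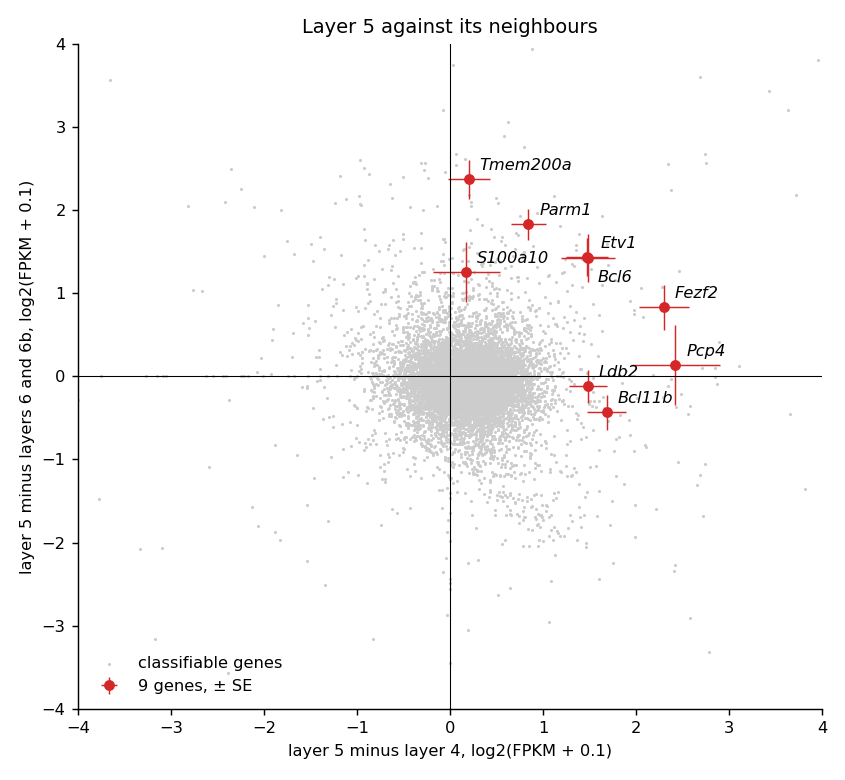
Difference of layer 5 from layer 4 (horizontal axis) and from layers 6 and 6b (vertical axis) on the log2(FPKM + 0.1) scale, for the 9 genes (red, ± SE) and all classifiable genes (grey; 24 lie outside the axes). Tmem200a and S100a10 lie near 0 on the horizontal axis, and Bcl11b, Ldb2 and Pcp4 lie near 0 on the vertical axis.

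Upper and lower layer 5 differed for all 9 genes by intervals, 6 being higher in C and 3 in D, where 15.5% and 18.8% of classifiable genes were higher in C and in D. There is 1 library for each, so this is no test between mice. By the same criterion the replicates B1 and B2 also differed, with 4 of the 9 genes higher in B1, 4 in B2 and 1 overlapping. For all classifiable genes, 66.4% had separate intervals in B1 and B2. The genes higher in C were S100a10 by 0.82 on the log2 scale, Etv1 by 0.50, Tmem200a by 0.49, Parm1 by 0.42, Bcl6 by 0.35 and Fezf2 by 0.21. Those higher in D were Pcp4, with a log2 ratio of C to D of -0.32, Ldb2 with -0.29 and Bcl11b with -0.16. Replicates exist only for segment B, where B1 and B2 are different litters. Their gap is set beside that between C and D and does not measure its error. The absolute log2 ratio of B1 and B2 had a median of 0.47 over the 9 genes, against 0.35 between C and D. The gap between C and D exceeded that between B1 and B2 for 3 of the 9 genes, S100a10 (0.82 against 0.47), Tmem200a (0.49 against -0.22) and Parm1 (0.42 against -0.10), all higher in C. By the same criterion 780 of 11409 classifiable genes (6.84%) were higher in C and 995 were higher in D. For Fezf2 the direction was not stable to the gene model, since the locus assembled by the authors without annotation gave a log2 ratio of -0.08 with overlapping intervals. The wider intervals of these loci also overlapped for Bcl11b, Etv1, Ldb2 and Tmem200a, and those of S100a10, Bcl6 and Pcp4 did not. The share of all such loci with separate intervals is not given. No such locus covered Parm1 in C or D.

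**Figure D5:**
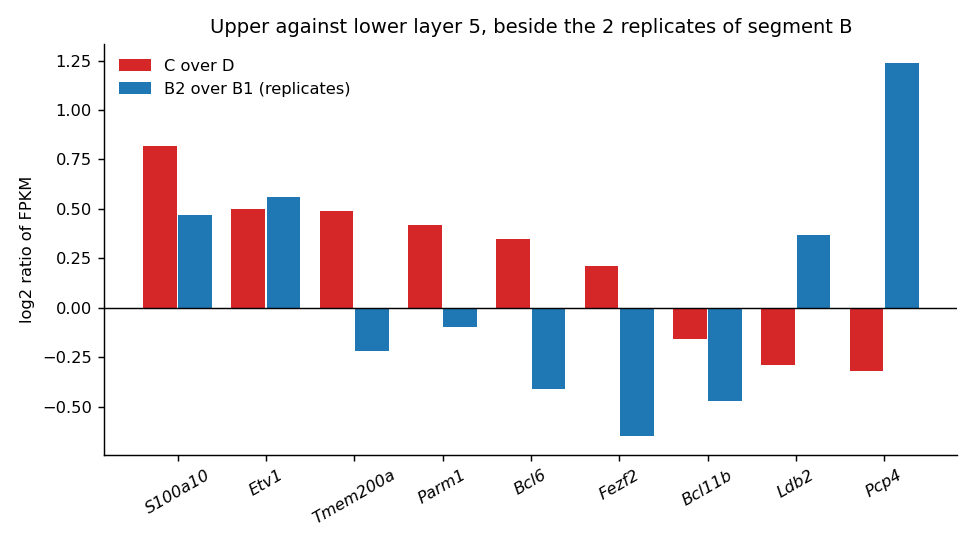
The log2 ratio of FPKM between C and D (red bars) beside that between the replicates B2 and B1 (blue bars) for the 9 genes. The red bar is longer than the blue for S100a10, Tmem200a and Parm1, and the longest blue bar is that of Pcp4 at 1.24.

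Markers of the neighbouring layers moved between C and D as well. The 3 layer 4 markers summed to 22.0 FPKM in C and 6.05 in D, the 5 upper layer markers to 177.2 and 150.6, and the 4 layer 6 markers to 34.4 and 63.7. Lamp5 (124.0 and 119.2, overlapping) weighed most in the upper layer sum and Tbr1 (30.4 and 45.8) in the layer 6 sum. The other genes of both lists moved more in proportion. Cux2 was at 9.17 FPKM in C and 3.21 in D. Foxp2 was at 0.932 and 5.03 and Syt6 at 2.16 and 10.4, both not classifiable. Of these lists, Nxph4, a layer 6b marker, was the one gene under 0.1 FPKM in a library. The 8 oligodendrocyte markers rose from 326.5 FPKM in A to 12510 in F, with 1643 in C and 2202 in D. Their part in the differences of the 9 genes between C and D was not tested.

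Below layer 5, E and F overlapped for Fezf2, Bcl11b and Pcp4. Bcl6, Parm1 and Tmem200a were higher in E, and Etv1, Ldb2 and S100a10 were higher in F. For all classifiable genes, 53.8% had intervals of E and F that did not overlap. The largest ratio of the 9 between these segments was that of Tmem200a, 2.50 times higher in E than in F.

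A trend over the 6 positions, fitted as a linear and a quadratic term in limma, used all 7 libraries and was called for 7 of the 9 genes at an adjusted p under 0.05, against 44.2% of classifiable genes. The adjusted limma p was lowest for Tmem200a (0.00299), Pcp4 (0.00375) and Fezf2 (0.00418), followed by Ldb2 (0.00813), Parm1 (0.0138), Bcl6 (0.0214) and Bcl11b (0.0233), while Etv1 (0.0892) and S100a10 (0.10) did not pass. The quadratic term was -0.41 ± 0.08 for Fezf2 and -0.40 ± 0.05 for Tmem200a, profiles higher in the middle than at both ends, and -0.03 ± 0.07 for Bcl11b, where it moved to -0.21 without A. Without A, 3 of the 9 were called, the calls of Fezf2, Bcl6, Pcp4 and Parm1 being lost, and only 1245 of all 11409 classifiable genes were called. The call of Bcl11b was lost without E (adjusted p = 0.0679) and without F (adjusted p = 0.0671), that of Bcl6 without D (adjusted p = 0.0726), and S100a10 passed without F (adjusted p = 0.0157) in the same limma fit. Etv1 passed in limma without E (adjusted p = 0.0364) and without F (adjusted p = 0.048).

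Lists of 7 kinds of related genes were set beside the 9. Of all classifiable genes, 44.2% were called in the trend and 6.71% had C or D above all other libraries (the layer 5 criterion). By intervals, 15.5% were higher in C than in D and 18.8% higher in D. Counts near these shares say nothing particular about a list. Of 7 genes of the extratelencephalic layer 5 class, which project out of the telencephalon, 6 were listed and 4 classifiable, and all 4 (Npr3, Fam84b, Vat1l and Chst8) had C or D above all other libraries by intervals, with a median share in C and D of 62.9%. Npr3, the natriuretic peptide clearance receptor, had the highest share, 66.6%, and was the one gene of the 7 lists that passed as higher in the limma comparison of layer 5 with the other segments (adjusted p = 0.0461). This call was lost in 11 of 17 alternatives, among them those without A, B1, B2, C, D or F, with adjusted limma p between 0.0249 and 0.989 over the 17. Npr3 was at 0.618 FPKM in A, 1.38 and 1.20 in the replicates B1 and B2, 4.00 in C, 4.43 in D, and 1.72 and 0.599 in E and F. Vat1l had the lowest share of the 4, 58.8%, and was the one of them with C above D. The trend was called for 3 of the 4, all but Chst8.

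Of 5 genes of the intratelencephalic layer 5 class, which project within the telencephalon, 2 were classifiable and both were higher in C than in D and called in the trend. Hsd11b1 was at 20.8 FPKM in C and 14.5 in D and met the layer 5 criterion. Tcap was at 4.79 FPKM in C and 2.48 in D but highest in B1, at 9.58 FPKM. Of 5 genes of the near-projecting class, 2 were classifiable, Sla2 and Lypd1. Both were higher in D than in C and met the layer 5 criterion, with Sla2 at 0.440 FPKM in C and 0.699 in D and Lypd1 at 10.8 and 16.9. Lypd1 met it in D alone, since A (15.1 FPKM) and F (14.3 FPKM) were above C. The genes of this class that were not classifiable did not share the direction. Slc17a8 was higher in C (2.16 FPKM) than in D (1.21 FPKM), and Tshz2 and Trhr had overlapping intervals in C and D.

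Of 8 corticospinal genes, 5 were classifiable, and their median share in C and D was 39.5%. Opn3, an opsin, had the highest share, 61.8%, and met the layer 5 criterion, as did Igfbp4, a binding protein of insulin-like growth factors. Igfbp4 met it in D alone, at 94.85 FPKM, with 56.3 in C, 65.7 in A, 89.9 in E and 74.4 in F. Crym, a thyroid hormone binding protein, was at 4.57 and 5.09 FPKM in B1 and B2, 21.9 in C, 34.3 in D, and 32.5 and 31.0 in E and F. Crym and Igfbp4 were higher in D than in C, and Cdh22, which had the lowest share at 31.4%, was higher in C. The trend was called for Opn3, Crym and Cdh22.

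Of 10 regulators that act with or against Fezf2 and Bcl11b, 9 were classifiable. None met the layer 5 criterion, and their median share in C and D was 30.6%. Tbr1, the corticothalamic factor, was at 30.4 and 45.8 FPKM in C and D and at 73.5 and 66.6 in E and F. Tle4 and Zfpm2 rose in the same direction, Tle4 from 8.13 FPKM in C to 39.8 in F and Zfpm2, with the lowest share in C and D at 18.1%, from 1.92 FPKM in C to 14.6 in F. Nr2f1 and Bhlhe22, which had the highest share at 38.6%, were higher in C than in D. The trend was called for 6 of the 9, among them Tbr1, Tle4, Bcl11a, Nr2f1 and Zfpm2.

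Of 9 genes for LIM proteins and other partners of Ldb2, 7 were classifiable. Lmo3 had the highest share in C and D, 45.2%, and was the one that met the layer 5 criterion, at 33.6 FPKM in C and 39.9 in D. Ssbp4 had the lowest share, 25.1%, and the related cofactor Ldb1 had overlapping intervals in C (33.6 FPKM) and D (36.6 FPKM). Lhx2 was higher in C than in D. The trend was called for Lmo3, Lmo4 and Ssbp4. Of 18 family and partner genes of the 9, 17 were listed, 9 were classifiable, and 1, Pcp4l1, the relative of Pcp4, met the layer 5 criterion, with the highest share in C and D, 40.2%. Pcp4l1 was at 50.8 FPKM in C and 54.5 in D and, unlike Pcp4, at 39.1 in E and 29.0 in F. Etv5, the relative of Etv1, was at 13.1 and 15.4 FPKM in C and D and at 18.1 and 17.8 in E and F, and was the one of the 9 called in the trend. Calm2 and Calm3, which encode calmodulin, were also higher in D, and Ncor1, a partner of Bcl6, had the lowest share, 29.4%.

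The genes with profiles most like each of the 9 were looked up among 9795 other classifiable genes whose mean level reached 1 FPKM, by Pearson's r of log2(FPKM + 0.1) over the 7 libraries, which share depth and scaling and allow no p. Those of Fezf2 included Stip1 (r = 0.997) and A130010J15Rik. Bcl11b was matched by Dbnl (r = 0.986), Ccn3 and Get4, and Ldb2 by Adsl (r = 0.991), Dhx15 and Zdhhc23. For Pcp4 the list was Prdx3 (r = 0.998), Tmem199 and Cct8. Pearson's r ignores the size of a change, and a neighbour can be far flatter than its gene. Tmem199 ran from 9.12 FPKM in A to 14.9 in D, where Pcp4 ran from 45.0 to 872.2. Stip1 ran from 36.1 FPKM in A to 71.7 in D, where Fezf2 ran from 0.980 to 22.45. Etv1 had Serpine2 (r = 0.991), Timm10 and Rab3c, of which Rab3c was at 75.7 FPKM in C and 57.7 in D and no higher than 34.2 FPKM elsewhere. Bcl6 had Trpm2 (r = 0.994), Fam84b and Vat1l, the last pair being members of the extratelencephalic list above. Parm1 had Trpc5 (r = 0.985), Entpd4b and Reln, S100a10 had Map3k20 (r = 0.969), Ciart and Pdyn, and Tmem200a had Srgap3 (r = 0.995), Epha6 and Nell1. The choice of neighbours was not stable, since 11 of the 27 were found again with B1 and B2 averaged and 1 of the 27 with Spearman's correlation. Among the 9 themselves, r was highest between Ldb2 and Pcp4 (0.95) and between Bcl11b and Ldb2 (0.93), and lowest between Bcl11b and Tmem200a (-0.41).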

How the data were processed

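Poly(A) RNA of 7 S1 libraries was sequenced as paired ends on the Illumina Genome Analyzer. The authors mapped reads to mm9 with TopHat 1.0.13, and Cufflinks 0.8.3 gave the deposited FPKM values with 95% intervals for Ensembl release 57 genes and transcripts, for loci assembled de novo, and the deposited coverage per transcript. The protocol describes no strand marking, so overlapping antisense reads would be counted with a gene. FPKM values are not counts, and no count test was run. Here, genes listed more than once in a library were summed, and genes not listed were set to 0. log2(FPKM + 0.1) was fitted with limma 3.58.1 (R 4.3.3, trended prior) over all 11409 classifiable genes, with Benjamini-Hochberg adjustment and a threshold of 0.05. C and D, and single libraries, were compared by nonoverlap of the deposited intervals. On simulated data (11409 genes), the fit of layer 5 against the other segments recovered 44% of genes changed by 1 on the log2 scale. It recovered 100% of those changed by 2. In the real data Fezf2 differed by 2.11 on this scale and did not pass the threshold in the main fit. The simulated shares therefore cannot be read as the power of the real fit. All 9 genes are named, and from each list the genes called and those with the highest and lowest share in C and D among classifiable genes, with the 3 closest profiles of each of the 9. Some genes that these rules would name are not reported here. The 9 genes and all lists were chosen with earlier results of these data known. Symbols came from GENCODE M21 and promoters from RefSeq (GRCm38.p6), where 7 of the 9 genes had an entry. Pou3f1 and Tmem200c were not matched to a listed gene. Alternatives were the pseudocount, filters, scaling, removal of a GC curve, interval width and leaving out libraries, and those without A, E or F and the de novo loci were added after seeing the data. Transcript assemblies were not used here.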

Additional observations from a re-analysis of the deposited data

How the results depend on the processing

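Layer 5 against the other segments called 34 genes in limma, and 2 with all genes of at least 0.1 FPKM, 7 with those of at least 1 FPKM, 13 with a pseudocount of 0.01, 11 with equal weight per library, 4 with 2 groups, and between 0 and 66 when 1 library was left out (0 without B1, B2, C or D, 12 without A, 66 without E). Layer 5 against layer 4 called 8 genes, 4 with all genes of at least 0.1 FPKM, 13 with a pseudocount of 0.01, and between 0 and 8 when 1 library was left out. Layer 5 against layers 6 and 6b called 15 genes, 9 with genes of at least 1 FPKM, 193 with the GC curve removed, and between 0 and 23 when 1 library was left out (23 without E, 5 without F). The trend called 5048 genes, and between 1245 and 6771 when 1 library was left out, the fewest without A. For the 9 genes, none was called in the 3 layer comparisons, except 1 (Fezf2) against the other segments and 2 (Tmem200a and Parm1) against layers 6 and 6b with the GC curve removed. With that curve removed, 27 and 82 of all 10801 genes were called as higher in layer 5 in these comparisons. When 1 library was left out, the trend called between 3 of the 9 (without A, with 1245 of all 11409 genes) and 8 of the 9 (without F, with 3819 of all genes). It called 6 of the 9 with median of ratios scaling (Bcl11b lost, 3911 of all 11409 genes called). With the GC curve removed it also called 6 of the 9 (Ldb2 lost, 3479 of all 10801 genes called).

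All 9 genes kept the sign of their difference from the other segments under every alternative run. Against layer 4, S100a10 turned to -0.02 with median of ratios scaling and -0.08 with the GC curve removed and ranged from -0.24 to 0.58 when 1 library was left out, and Tmem200a turned to -0.01 with the GC curve removed and ranged from -0.04 to 0.44. Against layers 6 and 6b, Ldb2 ranged from -0.27 to 0.03 and Pcp4 from -0.02 to 0.30 when 1 library was left out. The causes were not tested.

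Between C and D, 3909 genes had separate intervals, 2063 with intervals widened 2 times and 1775 when the gap had to exceed that between B1 and B2. Of the 9 genes, all were called, 7 with widened intervals (Fezf2 and Bcl11b lost) and 3 with the gap rule. De novo loci gave -0.08 for Fezf2, the reverse of the annotated gene. The layer 5 criterion was met by 765 genes, 441 with widened intervals and 471 with the gap rule, between 852 and 1024 without B1 or B2, and by 7 of the 9 in both of the last. Tmem200a lost it with median of ratios scaling. The longest Bcl11b isoform held 78.3% of the level in C, and 100% once isoforms not listed in all libraries were left out, which leaves this isoform alone. Of 27 profile neighbours, 11 were shared with B1 and B2 averaged and 1 with Spearman's correlation. No paired analysis was possible because only segment B has more than 1 library. Segments A, C, D, E and F have 1 library each, so their own replicate error is not known.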
